A study of Mus musculus with 23 samples.

Results

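The 10 chemokine and chemoattractant receptor genes *Cxcr2*, *Cxcr4*, *Ccr1*, *Ccrl2*, *Fpr1*, *Fpr2*, *C5ar1*, *C3ar1*, *Ltb4r1* and *Ptafr* were followed in bulk RNA-Seq of mouse neutrophils and of whole lung. They were chosen by name and found in every table, among 21878 genes in the tables of sorted neutrophils and 55335 in that of whole lung. In the tissue experiment, CD45+CD11b+Ly6G+ neutrophils of WT C57BL/6J mice were sorted from lung, peripheral blood (PB) and bone marrow (BM), with 3 libraries each. In the Piezo1 experiment, the same cells were sorted from lung and PB of WT mice and of *Piezo1*-cKO mice, with 2 libraries each. The *Piezo1*-cKO mice carried Vav1-iCre, which drives Cre in all hematopoietic cells, with a *Piezo1* fl/fl allele, so other blood cells lacked the gene too. In the depletion experiment, whole lungs were taken from WT mice given an isotype control antibody or an anti-Ly6G antibody that depletes neutrophils (PMN deletion), with 3 libraries each. The methods give an age of 7 to 12 weeks for the mice in general, and neither they nor the labels give the age of the mice of the depletion experiment on its own. The paper describes this sequencing directly after an experiment with depletion at an early age, so these mice may have been younger. Cells of PB and lung, but not of BM, first passed a negative selection kit, and lungs were perfused and digested with collagenase, so that tissue and handling cannot be told apart.

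Neutrophils find their way with G protein-coupled receptors that read gradients of chemokines, formylated bacterial peptides, complement fragments and lipid mediators. CXCR4 holds neutrophils in the BM by binding CXCL12, whereas CXCR2, the receptor for CXCL1 and CXCL2, draws them into the blood. CCR1 binds CC chemokines such as CCL3. FPR1 and FPR2 sense formyl peptides, C5aR1 and C3aR the complement fragments C5a and C3a, BLT1 (the product of *Ltb4r1*) leukotriene B4, and the product of *Ptafr* platelet-activating factor. CCRL2 is an atypical receptor that binds chemerin without signaling through G proteins.

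Promoter sequences are shown for the receptors with the largest rise and the largest fall from PB to lung, and for the head-to-head pair *Fpr1* and *Fpr2*. Each runs from 250 bases before the start site to 50 bases after it, 5′ to 3′ on the strand of the gene, as listed by RefSeq for GRCm38.p6. All 10 receptors matched a RefSeq promoter, 12 promoters in all because *Ccrl2* has 3. Capitals mark matches, on either strand, to an NF-kB motif (GGG, any 2 bases, TT, any base, CC), an AP-1 motif (TGANTCA), a C/EBP motif (TTNNGNAA) or an ETS motif (GGAAGT). The lines give *Ccrl2* at chr9:111057469-111057768 on the minus strand, *Cxcr2* at chr1:74153744-74154043 on the plus strand, *Fpr1* at chr17:17883890-17884189 on the minus strand and *Fpr2* at chr17:17887574-17887873 on the plus strand.
Ccrl2: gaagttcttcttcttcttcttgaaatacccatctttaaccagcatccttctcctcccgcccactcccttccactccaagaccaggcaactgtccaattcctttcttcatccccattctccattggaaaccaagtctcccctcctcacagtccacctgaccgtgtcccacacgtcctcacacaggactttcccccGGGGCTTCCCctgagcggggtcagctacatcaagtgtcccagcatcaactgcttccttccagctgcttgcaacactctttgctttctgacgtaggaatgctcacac
Cxcr2: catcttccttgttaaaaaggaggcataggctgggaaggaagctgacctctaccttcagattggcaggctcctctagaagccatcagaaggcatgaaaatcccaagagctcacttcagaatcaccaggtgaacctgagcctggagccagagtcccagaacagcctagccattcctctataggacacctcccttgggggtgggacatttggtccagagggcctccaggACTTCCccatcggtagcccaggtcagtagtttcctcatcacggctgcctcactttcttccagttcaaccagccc
Fpr1: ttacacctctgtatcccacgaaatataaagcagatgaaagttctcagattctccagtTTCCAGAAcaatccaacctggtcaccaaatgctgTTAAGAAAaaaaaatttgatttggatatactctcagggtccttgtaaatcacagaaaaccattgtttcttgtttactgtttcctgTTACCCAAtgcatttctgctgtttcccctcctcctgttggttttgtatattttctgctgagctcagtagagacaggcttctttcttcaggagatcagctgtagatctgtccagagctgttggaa
Fpr2: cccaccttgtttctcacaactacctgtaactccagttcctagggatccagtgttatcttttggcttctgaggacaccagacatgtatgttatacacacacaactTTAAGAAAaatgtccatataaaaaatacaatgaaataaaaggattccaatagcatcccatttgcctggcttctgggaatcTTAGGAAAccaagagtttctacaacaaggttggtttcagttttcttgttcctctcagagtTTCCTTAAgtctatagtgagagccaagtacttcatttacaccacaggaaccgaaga
The *Ccrl2* window held the NF-kB match GGGGCTTCCC, whose first base lay at position -56 from the start site, and the other *Ccrl2* promoters held none. *C3ar1* held the only other NF-kB match and the only AP-1 match of the group, against 4.79% and 7.81% of all 32851 promoters searched. A C/EBP match stood in 1 promoter each of *Cxcr4*, *C5ar1*, *Ccr1*, *Fpr1* and *Fpr2* (40.7% of all promoters), with 3 matches in each of the *Fpr1* and *Fpr2* windows. An ETS match stood in *Cxcr2*, at position -24, and in *C5ar1* and *Ltb4r1* (23.8% of all promoters). *Ptafr* held no match to these motifs. Such matches describe letters in a window and were not tested for binding.

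Reads recovered from the FPKM values (fragments mapped to a gene, scaled for its length and for the size of the library) came to 16502153 to 19330794 per library in the tissue experiment and 9621088 to 15034742 in the Piezo1 experiment. No 2 libraries of a group agreed within counting noise, since the mean chi-square per gene between them was 1.90 to 40.9, the highest values being those of PB replicate 3 against the other PB libraries (24.6 and 40.9, against 4.72 between PB replicates 1 and 2). Nothing in the labels says that replicates came from separate mice. A figure legend of the paper gives n = 3 mice for the sorted lung, PB and BM neutrophils, and none is given for sequencing in the Piezo1 experiment. The p-values measure the spread between these libraries. All 7 neutrophil markers were above 1 FPKM in every sorted group, and *Ly6g*, the sorted antigen, averaged 54.5 FPKM in lung, 101 in PB and 772 in BM. The 7 markers summed to 43448 to 47652 FPKM in lung, 56797 to 73630 in PB and 129405 to 147281 in BM. In the Piezo1 experiment they summed to 90599 to 94021 in WT and 69017 to 73393 in *Piezo1*-cKO lung. For PB the sums were 134097 to 137800 in WT and 111847 to 126804 in *Piezo1*-cKO mice. The part of these differences in the receptor values was not tested. The summed FPKM of 6 dendritic cell markers was 65.1 to 70.9 in lung libraries against 0.0733 to 0.189 in PB, carried by *H2-Aa* and *H2-Ab1*. The 11 monocyte and macrophage markers summed to 675 to 815 in BM, 254 to 303 in PB and 188 to 193 in lung. Of these 11, 7 reached 1 FPKM in BM, 3 in PB and 4 in lung. *Ly6c2* made up most of the BM sum (mean 660 FPKM), and *Csf1r* was the highest in PB (133) and lung (97.4). The part of other cell types in the receptor values was not tested. *Piezo1* had 3 to 10 reads in each library of the Piezo1 experiment, over its whole length, which gives no check of the genotype labels.

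Which receptors dominated the message pool differed between the compartments. On the FPKM scale, which is per length and so allows levels of different genes to be compared, the 10 receptors together summed to 4047 ± 57.1 in lung, 2889 ± 38.7 in PB and 2334 ± 31.6 in BM (SD, n = 3). In BM, *Cxcr2* held 24.7% and *Fpr2* 23.1% of this sum, followed by *Fpr1* with 14.8%. In PB, *Cxcr2* held 34.6% and *Cxcr4* 20.6%, and the next receptors, *Ccr1* with 11.7% and *C5ar1* with 10.7% to 11.2%, overlapped between libraries. In lung, *Ccrl2* came first with 27.4%, ahead of *C5ar1* with 15.5% and *Cxcr4* with 14.5%, and *Cxcr2* held 6.38%. No neighbors in the order of lung or BM overlapped between libraries. Among all genes ranked by mean FPKM, *Ccrl2* stood at place 7120 in BM, 709 in PB and 48 in lung, while *Cxcr2* stood at place 81 in BM, 46 in PB and 255 in lung. These shares and places are those of the tissue experiment, and the order differed in WT mice of the Piezo1 experiment. There *C5ar1* led in lung with 29.7%, ahead of *Ccrl2* with 27.5% and *Ccr1* with 20.6%, and *Cxcr4* held 1.24%. In WT PB *Cxcr2* again led with 32.5%, but *Cxcr4* held 1.28%.

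**Figure D1:**
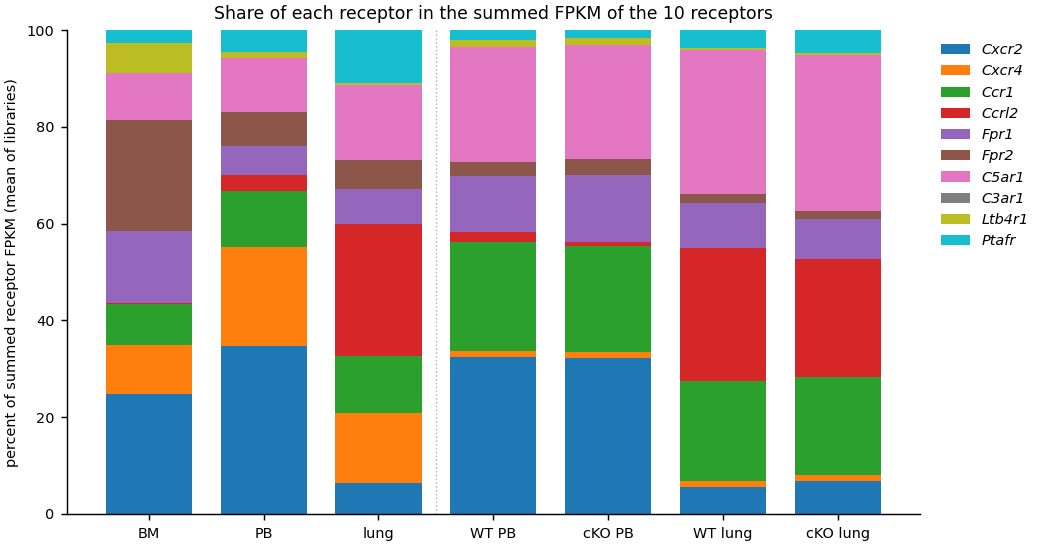
Share of each receptor in the summed FPKM of the 10 receptors (percent, mean of the libraries of a group) in the 7 groups of sorted neutrophils, with the tissue experiment left of the dotted line and the Piezo1 experiment right of it. *Cxcr2* held 34.6% in PB and 6.38% in lung, and *Ccrl2* 3.21% in PB and 27.4% in lung.

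Lung over PB, the central comparison of the tissue experiment, asked which receptor transcripts differ between circulating neutrophils and those held in the lung. *Ccrl2* and *Ptafr* rose and *Cxcr2* and *Ltb4r1* fell, so that 4 of the 9 receptors tested were called (adjusted p below 0.05 and absolute log2 fold change above 1), against 27.2% of all 7577 genes tested. The 2 higher stood against 7.75% of all genes called higher and the 2 lower against 19.5% called lower. *C3ar1* lay below the filter of 1 FPKM in 3 libraries and was not tested. The median log2 fold change of the tested receptors was 0.49 against -0.54 for all genes tested, a shift that all values below carry. FPKM did not overlap between lung and PB for 8 of the 10 receptors, against 86.2% of all genes tested. After rescaling to the median ratio of the libraries, 6 receptors were called, 5 higher and 1 lower, in place of 2 and 2. In bulk samples, fewer cells of a type and less RNA per cell cannot be told apart.

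**Figure D2:**
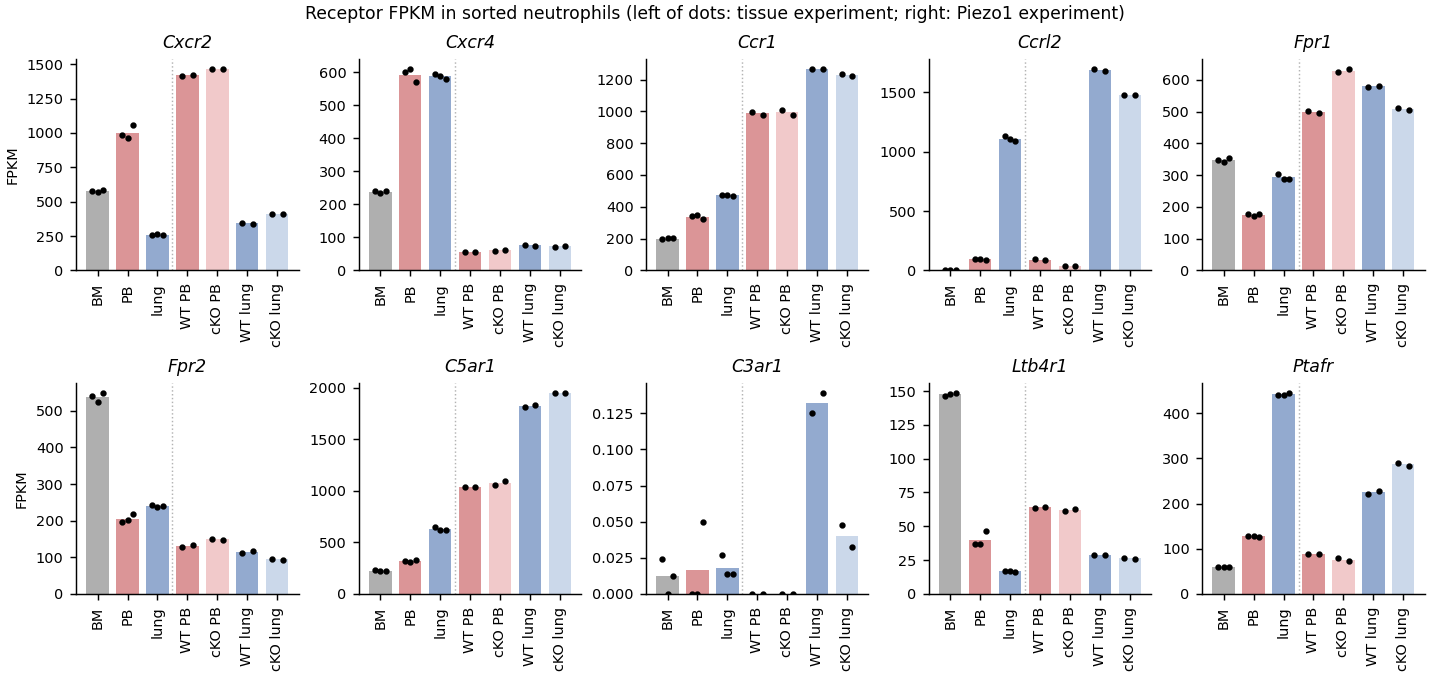
FPKM of each receptor (linear axis from 0, scaled per panel) in the 7 groups of sorted neutrophils, where points are libraries and bars are means, with the tissue experiment left of the dotted line. *Ccrl2* lay at 1088 to 1133 FPKM in lung and at 87.2 to 95.5 in PB, and *Cxcr4* stood higher in the tissue experiment than in the Piezo1 experiment in each tissue.

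*Ccrl2* (NCBI gene 54199, GRCm38 chromosome 9, 111054486 to 111057519, minus strand) covered the widest range. It measured 1133, 1105 and 1088 FPKM in lung, 95.5, 95.0 and 87.2 in PB, and 2.51, 1.54 and 1.90 in BM, the latter from 110, 68 and 80 reads. The 3 tissues formed 3 separate levels with no overlap, from near the filter in BM to among the most abundant messages in lung. On the log2(FPKM + 1) scale, lung exceeded PB by 3.57 (SE 0.06, adjusted p = 1.5e-09), an 11.9-fold difference, and PB exceeded BM by 4.98 (SE 0.11, adjusted p = 1.8e-08).

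*Ptafr* (NCBI gene 19204, chromosome 4, 132564067 to 132582683, plus strand) followed the same order at lower levels. Its FPKM was 440, 440 and 446 in lung, 129, 128 and 127 in PB, and 60.4, 59.5 and 60.1 in BM. The libraries of each tissue lay within a few FPKM of each other, and the groups stood well apart. Lung exceeded PB 3.43-fold (log2 1.78, SE 0.05, adjusted p = 1.7e-08).

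*Cxcr2* (NCBI gene 12765, chromosome 1, 74153989 to 74161246, plus strand) took the opposite course from PB to lung, but not from BM to PB. PB was highest with 983, 963 and 1057 FPKM, BM followed with 578, 569 and 584, and lung was lowest with 257, 261 and 256. Every PB library lay above every BM library, and every BM library above every lung library. The lung level was 3.86-fold lower than in PB (log2 -1.95, SE 0.05, adjusted p = 2.6e-08). From BM to PB the log2 difference was 0.79, past the p threshold but short of the fold threshold.

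*Ltb4r1* (NCBI gene 16995, chromosome 14, 55765962 to 55768494, plus strand), the high-affinity leukotriene B4 receptor, stepped down from BM over PB to lung. It measured 146, 148 and 149 FPKM in BM, 36.9, 37.1 and 46.3 in PB, and 17.3, 17.2 and 16.5 in lung. PB replicate 3 was the highest of its group and still far below BM. Lung was 2.28-fold lower than PB (log2 -1.19, SE 0.09, adjusted p = 6.2e-06), a call that was lost after rescaling (log2 -0.59) with the direction kept.

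*C5ar1* (NCBI gene 12273, chromosome 7, 16246743 to 16259540, minus strand) and *Ccr1* (NCBI gene 12768, chromosome 9, 123962124 to 123968692, minus strand) had the order lung, PB, BM. *C5ar1* measured 646, 617 and 620 FPKM in lung, 318, 307 and 327 in PB, and 227, 222 and 226 in BM. *Ccr1* measured 476, 472 and 468 FPKM in lung, 341, 346 and 323 in PB, and 194, 201 and 203 in BM. Neither receptor overlapped between any 2 tissues. Over PB, *C5ar1* came to a log2 fold change of 0.98 (SE 0.05, adjusted p = 7.1e-07) and *Ccr1* to 0.49 (SE 0.05, adjusted p = 3.7e-05), both short of the fold threshold. *C5ar1* reached 1.00 without PB replicate 3 and was then called, and after rescaling both were called (log2 1.60 and 1.11).

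The formyl peptide receptors *Fpr1* (NCBI gene 14293, chromosome 17, 17876471 to 17883940, minus strand) and *Fpr2* (NCBI gene 14289, chromosome 17, 17887824 to 17893952, plus strand) lie 3883 bases apart, and both were highest in BM. *Fpr1* measured 346, 340 and 353 FPKM in BM, 176, 171 and 177 in PB, and 304, 289 and 287 in lung. *Fpr2* measured 541, 525 and 549 FPKM in BM, 195, 201 and 218 in PB, and 243, 236 and 240 in lung. Both genes had their lowest libraries in PB and none of the 3 tissues overlapped. Lung over PB gave log2 0.74 for *Fpr1* (SE 0.05, adjusted p = 2.8e-06) and 0.23 for *Fpr2* (SE 0.06, adjusted p = 0.0056), neither past the fold threshold, although *Fpr1* was called after rescaling (log2 1.36). The exons of *Fpr2* overlap those of *Fpr3* in GENCODE vM21. How the authors' counting treated reads in such an overlap is not given.

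*Cxcr4* (NCBI gene 12767, chromosome 1, 128588199 to 128592293, minus strand) separated BM from the other compartments. It measured 239, 235 and 240 FPKM in BM, 601, 610 and 570 in PB, and 594, 590 and 580 in lung. Lung and PB overlapped, and both stood above BM. The log2 difference of lung over PB was -0.01 (SE 0.05, adjusted p = 0.82), which turned to 0.61 after rescaling and to 0.01 without PB replicate 2. Relative to the median gene, *Cxcr4* stood 0.52 higher in lung than in PB. Lung over BM gave 1.30 (SE 0.02, adjusted p = 2.3e-12) and PB over BM 1.31 (SE 0.05, adjusted p = 1.7e-07).

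*C3ar1* (NCBI gene 12267, chromosome 6, 122847138 to 122856161, minus strand) was hardly detected in sorted neutrophils. In the tissue experiment it had 2, 1 and 1 reads in lung, 0, 0 and 4 in PB, and 2, 0 and 1 in BM. A count of 0 allows up to 3 reads, which is 0.0361 to 0.0394 FPKM in the libraries of the tissue experiment that had none, for counting error only. WT lung of the Piezo1 experiment had 8 and 9 reads (0.125 and 0.139 FPKM), *Piezo1*-cKO lung 3 and 2, and all 4 PB libraries of that experiment had 0, with limits of 0.0465 to 0.0725 FPKM.

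Over BM, the pattern in lung was wider than over PB. Of the 9 receptors tested, 8 were called in lung over BM, against 45.9% of all genes tested, with 5 higher (9.86% of all genes) and 3 lower (36% of all genes). FPKM did not overlap for 9 of the 10 receptors, against 92.9% of all genes tested. The rises were those of *Ccrl2* with a log2 fold change of 8.55, *Ptafr* with 2.86, *C5ar1* with 1.48, *Cxcr4* with 1.30 and *Ccr1* with 1.24. The falls were those of *Ltb4r1* with -3.05, *Fpr2* with -1.16 and *Cxcr2* with -1.16. After rescaling, the calls of *Cxcr2* and *Fpr2* were lost (both -0.33), leaving 5 higher and 1 lower, and *Fpr1*, at -0.24 before, turned to 0.59. In PB over BM, 5 were called, against 22% of all genes tested: *Ccrl2*, *Cxcr4* and *Ptafr* (log2 1.08) were higher (7.85% of all genes), and *Ltb4r1* (-1.86) and *Fpr2* (-1.39) lower (14.1% of all genes). *Fpr1* came close, with -0.98. FPKM did not overlap for 9 of the 10 receptors, against 76.8% of all genes tested. These comparisons share the libraries of PB, lung or BM with that of lung over PB. *Ltf*, a specific granule gene of maturing neutrophils, averaged 8150 FPKM in BM against 139 in PB and 121 in lung, and its part in the BM values was not tested.

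The Piezo1 experiment held separate WT libraries of lung and PB, in separate tables in which each library was scaled on its own. In WT lung over WT PB, 4 of the 9 receptors tested were called, against 34% of all genes tested: *Ccrl2* (log2 4.22, SE 0.03) and *Ptafr* (1.33, SE 0.03) were higher (7.5% of all genes) and *Cxcr2* (-2.05, SE 0.02) and *Ltb4r1* (-1.12, SE 0.04) lower (26.5% of all genes). *Ccrl2* measured 1695 and 1677 FPKM in WT lung against 92.1 and 87.5 in WT PB. *Cxcr2* measured 346 and 340 FPKM in WT lung against 1417 and 1424 in WT PB. All 9 receptors tested had groups that did not overlap, as had 94.5% of all genes tested, and so did *C3ar1*, which was not tested. *Fpr2* was at log2 -0.19, which turned to 0.53 after rescaling, and after rescaling 5 receptors were called higher and 1 lower. The call of *Ltb4r1* was lost by rescaling (log2 -0.41). In *Piezo1*-cKO lung over *Piezo1*-cKO PB, 4 were also called, against 30.9% of all genes tested: *Ccrl2* (5.40, SE 0.04) and *Ptafr* (1.90, SE 0.05) higher (7.93% of all genes), *Cxcr2* (-1.83, SE 0.03) and *Ltb4r1* (-1.21, SE 0.05) lower (23% of all genes). All 9 receptors tested again did not overlap, against 92.6% of all genes tested. The untested *C3ar1* had 0.0474 and 0.0326 FPKM in *Piezo1*-cKO lung, below the limits of 0.0725 and 0.0493 FPKM for its counts of 0 in PB, so its separation is not settled. Dendritic cell markers summed to 133 to 137 FPKM in WT lung against at most 1.02 in WT PB. In *Piezo1*-cKO mice they summed to 102 to 107 against 0.0233 to 0.0634. In each lung group 2 of the 6 markers reached 1 FPKM, the highest being *H2-Aa* in WT (71.1) and *H2-Ab1* in *Piezo1*-cKO lung (55.4). Erythroid markers in *Piezo1*-cKO mice summed to 1011 to 1136 in PB against 0.422 to 1.70 in lung. The part of either set of markers in the lung over PB differences was not tested. After rescaling the split among the *Piezo1*-cKO libraries was 3 higher and 1 lower, and *Fpr1* turned from -0.31 to 0.32. *Ltb4r1* lost its call among these libraries as well (log2 -0.60).

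**Figure D3:**
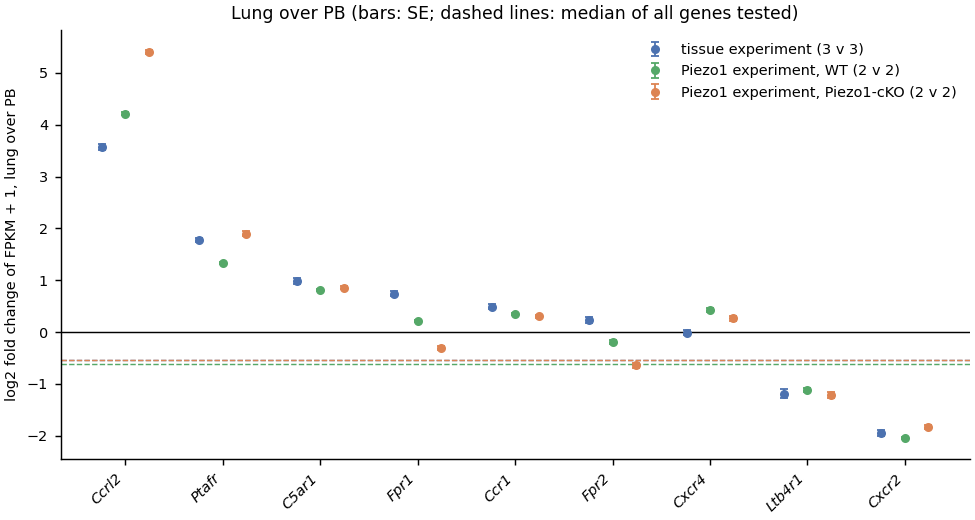
Log2 fold change of FPKM + 1, lung over PB, for the 9 receptors tested, in the tissue experiment and in WT and *Piezo1*-cKO mice of the Piezo1 experiment, with bars for the SE and dashed lines for the median of all genes tested. *Ccrl2* stood highest (3.57, 4.22 and 5.40) and *Cxcr2* lowest (-1.95, -2.05 and -1.83) in all 3.

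Levels of several receptors differed between the experiments in both tissues. *Cxcr4* measured 77.4 and 74.7 FPKM in WT lung and 56.2 and 56.2 in WT PB of the Piezo1 experiment. Its level in the tissue experiment was 7.64-fold higher in lung and 10.4-fold higher in PB, a distance reached by 2.71% and 1.36% of all genes. *C5ar1* ran the other way, with 1813 and 1830 FPKM in WT lung and 1040 and 1040 in WT PB, 2.90-fold and 3.27-fold above the tissue experiment, a distance reached by 15.0% and 12.8% of all genes. *Ccr1* measured 1266 and 1264 FPKM in WT lung and 999 and 977 in WT PB, 2.68-fold and 2.93-fold above the tissue experiment, as reached by 17.3% and 15.4% of all genes. The experiments are held in separate tables, each library scaled on its own, and experiment and library batch cannot be told apart in these levels. In a joint fit of both experiments, added after the values were seen, the lung over PB difference itself differed for 6 of the 9 receptors at an adjusted p below 0.05, against 40.1% of all genes tested. It was smaller in the tissue experiment for *Ccrl2* (by a log2 difference of -0.65) and *Cxcr4* (-0.44) and larger for *Fpr1* (0.53), *Ptafr* (0.45), *Fpr2* (0.42) and *C5ar1* (0.17). The count was 8 without PB replicate 3, where 4030 of 8113 genes tested differed, and 5 without any 1 of the other libraries or after rescaling. The call of *C5ar1* was the 1 lost in those fits (adjusted p of 0.060 to 0.14 without 1 library, and 0.52 after rescaling, where the term was 0.07).

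Between the genotypes, the comparison asked whether deleting *Piezo1* in hematopoietic cells goes with other receptor levels. In PB, *Ccrl2* alone among the 9 receptors tested was called, against 3.65% of all genes tested, and it was higher in WT (1.97% of all genes were called higher and 1.68% lower). FPKM did not overlap for 8 of the 10 receptors, against 77.3% of all genes tested. *Ccrl2* measured 34.8 and 32.9 FPKM in *Piezo1*-cKO PB (766 and 1065 reads), whereas WT PB had 92.1 and 87.5 FPKM (2778 and 3008 reads). The WT libraries lay clear of the *Piezo1*-cKO libraries, 2.61-fold higher (log2 1.38, SE 0.06, adjusted p = 3.6e-05). Leaving out any 1 of the 4 libraries gave 1.34 to 1.42. *Piezo1*-cKO PB libraries also held 1011 to 1136 FPKM of 5 erythroid markers, with none of them at 0, against 24.8 to 26.7 in WT PB, and the part of this in the difference was not tested. Of the other receptors in PB, *Fpr1* (log2 -0.33, SE 0.04, adjusted p = 0.00074), *Fpr2* (-0.18, SE 0.05, adjusted p = 0.015) and *Ptafr* (0.22, SE 0.05, adjusted p = 0.012) passed the p threshold below the fold threshold. *Fpr1* measured 625 and 634 FPKM in *Piezo1*-cKO PB, above the 503 and 497 of WT PB. *Ltf*, the specific granule gene named above, measured 407 and 401 FPKM in *Piezo1*-cKO PB and 263 and 257 in WT PB. The part of *Ltf* in these differences was not tested.

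In lung, none of the 9 receptors tested was called, against 0.995% of all genes tested (0.202% higher and 0.793% lower), and limma voom on the recovered reads called none either. The adjusted p alone was below 0.05 for 6 of them, and the unadjusted p for 8. FPKM did not overlap for 9 of the 10, among them *C3ar1*, which had few reads and was not tested, against 76.6% of all genes tested. The dendritic cell markers, of which 2 of 6 reached 1 FPKM in each genotype, summed to 133 to 137 FPKM in WT and 102 to 107 in *Piezo1*-cKO lung. *Ltf* measured 121 and 120 FPKM in WT and 164 and 162 in *Piezo1*-cKO lung. The part of the dendritic cell markers and of *Ltf* in the receptor values was not tested. The largest difference was that of *Ptafr*, with 222 and 227 FPKM in WT and 290 and 284 in *Piezo1*-cKO lung (log2 -0.35, SE 0.03, adjusted p = 0.00013). *Cxcr2* measured 346 and 340 FPKM in WT and 412 and 408 in *Piezo1*-cKO lung (log2 -0.26, SE 0.02, adjusted p = 0.00024). *Ccrl2* measured 1695 and 1677 FPKM in WT and 1473 and 1473 in *Piezo1*-cKO lung (log2 0.19, SE 0.02, adjusted p = 0.00022). The *Piezo1*-cKO libraries were thus higher for *Ptafr* and *Cxcr2* and lower for *Ccrl2*, with no overlap in any of these. *Fpr1* and *Fpr2* came to 0.19 and 0.27, and *C5ar1* to -0.10, which turned to 0.02 after rescaling.

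**Figure D4:**
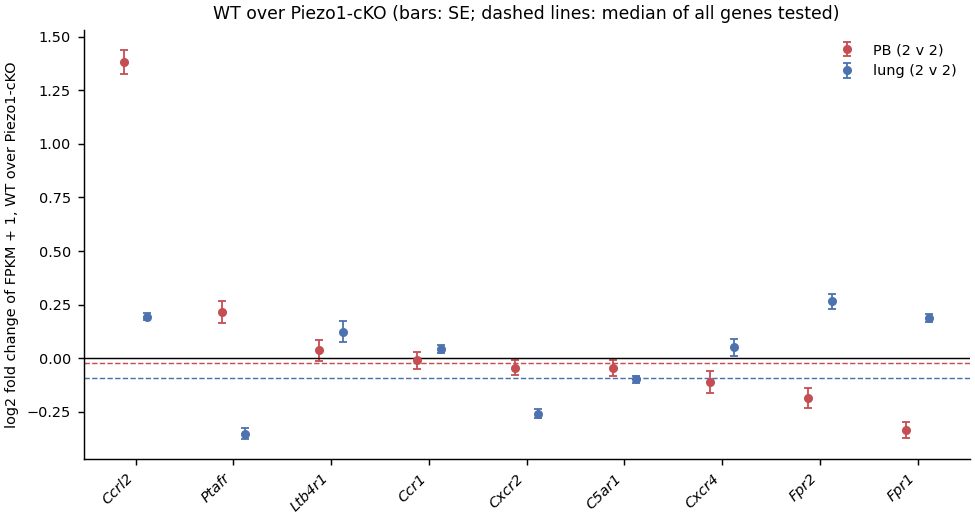
Log2 fold change of FPKM + 1, WT over *Piezo1*-cKO, for the 9 receptors tested in PB and in lung, with bars for the SE and dashed lines for the median of all genes tested. *Ccrl2* stood at 1.38 in PB and 0.19 in lung. *Ptafr*, *Fpr1* and *Fpr2* lay on opposite sides of 0 in the 2 tissues, as did *Cxcr4* and *Ccr1*, nearer to 0.

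The genotype difference itself differed between lung and PB for 6 of the 9 receptors tested (interaction term, adjusted p below 0.05), against 48.2% of all genes tested, with 3 higher (18.5% of all genes) and 3 lower (29.7% of all genes). *Ccrl2* had the largest term, -1.19 (SE 0.05, adjusted p = 6.8e-06), since its WT excess was larger in PB than in lung. *Ptafr* (-0.57, SE 0.05, adjusted p = 0.00014), *Fpr1* (0.52, SE 0.04, adjusted p = 3.7e-05) and *Fpr2* (0.45, SE 0.06, adjusted p = 0.00042) had opposite signs in the 2 tissues. *Cxcr2* came to -0.21 (SE 0.03, adjusted p = 0.0012) and was lost after rescaling (-0.09), where the calls were 5 higher and 2 lower. *Cxcr4* came to 0.16 with an adjusted p of 0.0499, which rose above 0.05 without any 1 of the libraries but *Piezo1*-cKO PB replicate 1. As shares of the summed receptor FPKM, *Ccrl2* held 2.05% in PB of WT mice against 0.744% in that of *Piezo1*-cKO mice, and 27.5% and 24.4% in their lungs, while *Cxcr2* held 32.5% and 32.2% in PB.

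In whole lung, where neutrophils are a small part of the cells, receptor levels were low and none of the 10 was called after anti-Ly6G (absolute log2 fold change above 0.5), against 0.00715% of all 13990 genes tested. The unadjusted p was below 0.05 for 3 of the 10, and no count test was run here. The summed FPKM of the 7 neutrophil markers was 201 to 260 in control and 39.3 to 117 in anti-Ly6G lungs, and *Ly6g* itself was at 0.577 FPKM or less in each library. FPKM did not overlap between the groups for 4 of the 10 receptors, against 17.4% of all genes tested. *Cxcr2* measured 5.97, 3.87 and 3.71 FPKM in control and 2.31, 1.87 and 0.736 in anti-Ly6G lungs (log2 -1.09, SE 0.26, adjusted p = 0.22). *Cxcr4* measured 52.4, 44.0 and 39.4 FPKM in control and 32.7, 29.7 and 31.4 in anti-Ly6G lungs (log2 -0.51, SE 0.11, adjusted p = 0.18). The summed FPKM of 4 B cell markers was 80.4 to 85.6 in control and 31.4 to 67.4 in anti-Ly6G lungs, and that of 5 T or NK cell markers 16.7 to 18.7 and 9.07 to 16.5. Their part in these differences was not tested. Both *Cxcr2* and *Cxcr4* stood lower in every anti-Ly6G library than in any control, as did *Ptafr*. *Ptafr* measured 2.75, 2.99 and 2.26 FPKM in control and 2.02, 1.61 and 1.18 in anti-Ly6G lungs (log2 -0.50, SE 0.15, adjusted p = 0.28). *C3ar1*, absent from sorted neutrophils but for a few reads, had 1.02, 1.08 and 1.02 FPKM in control and 1.18, 1.43 and 1.13 in anti-Ly6G lungs (log2 0.14, SE 0.11, adjusted p = 0.69).

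**Figure D5:**
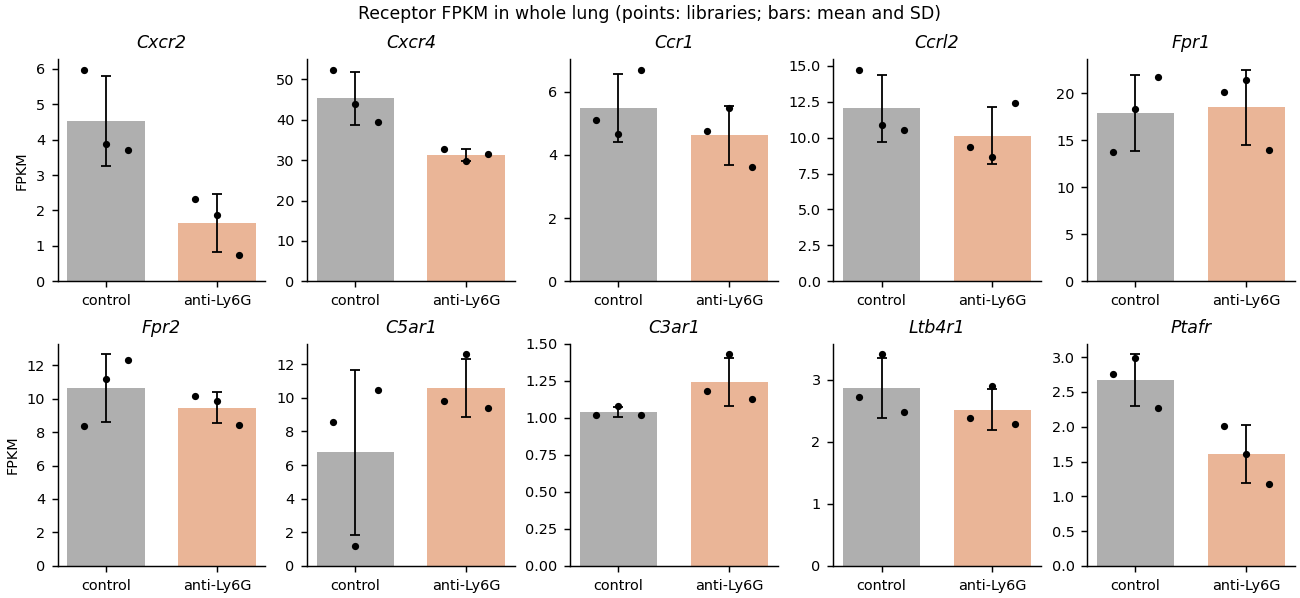
FPKM of each receptor (linear axis from 0, scaled per panel) in control and anti-Ly6G whole lungs, where points are libraries and bars and whiskers are the mean and SD of 3 libraries. The groups did not overlap for *Cxcr2*, *Cxcr4*, *Ptafr* and *C3ar1*, and control replicate 2 stood at 1.21 FPKM of *C5ar1* against 8.59 and 10.5 in the other controls.

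The remaining receptors overlapped between control and anti-Ly6G lungs. *C5ar1* measured 8.59, 1.21 and 10.5 FPKM in control and 9.78, 12.6 and 9.42 in anti-Ly6G lungs (log2 0.88, SE 0.58, adjusted p = 0.62), and the difference was 0.13 without control replicate 2. In that library *C5ar2*, which lies 2588 bases away on the same strand, stood at 1.78 FPKM against 0.0363 and 0.0196 in the other controls. The cause was not tested. *Ccr1*, *Ccrl2*, *Fpr1*, *Fpr2* and *Ltb4r1* lay at log2 differences of -0.23 to 0.04, and *Fpr1* changed sign when single libraries were left out. *Cxcr4* made up 41.5% ± 5.15 of the summed receptor FPKM in control and 34.2% ± 3.05 in anti-Ly6G lungs (SD, n = 3), where many cell types express it.

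Related genes were described by 5 lists set by pathway role. Of 19 other chemokine receptors, 3 were tested in lung over PB, and 2 fell: *Cxcr3* (log2 -1.40) and *Cxcr1* (-1.02), both lost after rescaling (-0.97 and -0.44). Of 24 other chemoattractant receptors, 10 were tested, with 4 higher and 2 lower and a median of 0.54. The higher ones included *Gpr35* (2.80), *Gpr84* (2.63), a receptor for medium-chain fatty acids, and *Hcar2* (1.86), the niacin receptor. *S1pr4*, a sphingosine 1-phosphate receptor, fell by 2.72 on the log2 scale, and *C5ar2*, the second receptor for C5a, by 1.81, against the course of *C5ar1*.

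Of 23 genes that carry the receptor signal, 22 were tested, with none called higher and 3 lower (median -0.62, close to the -0.54 of all genes). These were *Pik3cg* (-1.37) and *Pik3r5* (-1.20), the catalytic and a regulatory subunit of PI3K gamma, and *Rac1* (-1.03), all lost after rescaling. Of 13 genes of receptor desensitization, 11 were tested, with 1 higher and 5 lower (median -0.86). *Rgs1* rose (3.23), whereas *Rgs2* (-2.77), *Rgs19* (-1.89) and *Rgs3* (-1.68) fell, all being GTPase-activating regulators of G protein signaling. Of 21 ligands and enzymes that make them, 14 were tested, with 6 higher and none lower (median 0.51). Among these, *Cxcl3* (8.23) and *Cxcl1* (6.40), ligands of CXCR2, and *Ccl3* (4.05), a ligand of CCR1, rose most. *Cxcl1* averaged 0.419 FPKM in PB against 118 in lung and met the filter only through lung, so it could only come out higher. *Cxcl3* averaged 1.76 FPKM in PB, near the filter. The respective backgrounds are the 7.75% of all genes higher and 19.5% lower given above.

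Between genotypes in lung, 1 of 9 other chemoattractant receptors tested and 1 of 11 desensitization genes were called, and none of 5 chemokine receptors, 20 signaling genes and 15 ligands and enzymes, against 0.995% of all genes. In PB, 2 of 12 ligands and enzymes were called and none of 4 chemokine receptors, 10 other chemoattractant receptors, 23 signaling genes and 11 desensitization genes, against 3.65% of all genes. *C5ar2* was lower in WT than in *Piezo1*-cKO lung, with means of 5.28 and 11.9 FPKM (log2 -1.04, adjusted p = 0.00018), and fell short of the fold threshold after rescaling (-0.94). *Rgs1* ran the other way, with means of 90.3 FPKM in WT and 38.3 in *Piezo1*-cKO lung (log2 1.22). In PB, the CXCR2 ligands *Cxcl2* (934 and 337 FPKM, log2 1.47) and *Cxcl3* (3.51 and 0.565 FPKM, log2 1.53) were higher in WT. *Cxcl3* lay below the filter of 1 FPKM in *Piezo1*-cKO PB and was tested only through its WT libraries, so it could only come out higher in WT. In the anti-Ly6G comparison no gene of these lists was called.

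The genes whose pattern lay closest to that of a receptor were taken from 6228 genes, by the Euclidean distance of log2(FPKM + 1), centered per gene and experiment, over the 17 sorted libraries. For *Ccrl2* they were *Cxcl2*, a CXCR2 ligand, at a distance of 0.88, *Cd14*, a co-receptor for lipopolysaccharide, at 1.94, and *Dusp2*, a MAP kinase phosphatase, at 2.13, against a length of 12.6 for the *Ccrl2* pattern itself. *Cxcl2* averaged 10911 FPKM in lung, 772 in PB and 24.1 in BM, and *Cd14* averaged 3899 in lung and 160 in PB. For *Cxcr2* they were *Fut4* at 0.36, which makes selectin ligands, *Eif2ak3* at 0.42 and *Orai3* at 0.49, against 3.66 for *Cxcr2*. *Cytip* at 0.35, *Ddx6* at 0.48 and *Fam134b* at 0.48 lay nearest to *Cxcr4*, against 1.92.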

How the data were processed

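The authors aligned reads of sorted neutrophils and whole lungs to mm10 with HISAT2 after fastp, and counted them with HTSeq (versions not given in the sources used here). The library kit is SMARTER in the labels and VAHTS Universal V6 in the methods. The values deposited by the authors are FPKM per gene and library, in 4 tables. Columns of the authors' own comparisons (group signals, fold changes, p-values and q-values, made with DESeq2) were not used. Genes were matched by NCBI gene identifier (27 symbols that had become dates were restored) or, in whole lung, by symbol. Reads were recovered from FPKM in the 17 sorted libraries, where 100.0% of values above 0 came out whole within 0.05 reads. Lung and PB of the Piezo1 experiment come from separate tables and were compared as deposited, and after rescaling.

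For each comparison, log2(FPKM + 1) entered limma-trend (limma 3.58.1 in R 4.3.3, robust eBayes). Genes had to reach 1 FPKM in 3 libraries (2 in the Piezo1 experiment), and p-values were adjusted after Benjamini-Hochberg over all genes tested. A call needed an adjusted p under 0.05 and, except for the interaction and the comparison of experiments, a log2 fold change beyond 1 in either direction (0.5 in whole lung). The pseudocount of 1 understates changes of low genes. Since the files hold FPKM, no count test was the main test. Alternatives were limma voom on recovered reads, a pseudocount of 0.1, no filter (genes above 0 in any library compared), rescaling to the median ratio, the adjusted p alone, leaving out each library, all libraries of an experiment in 1 fit, and a replicate block. The comparison of experiments was added after the data were seen. Scripts were tested on simulated data. The members and gene lists were chosen with earlier results of these data known. Beside the receptors, the text names *Piezo1* and *Ly6g*, the highest markers, per list up to 3 called genes with the largest rise and fall in lung over PB and up to 3 called between genotypes, and the 3 nearest genes of *Cxcr2*, *Cxcr4* and *Ccrl2* among genes averaging at least 5 FPKM in a group. *Ltf* was added after its values were seen. Positions are from GENCODE vM21 (GRCm38).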

Additional observations from a re-analysis of the deposited data

Results flagged for a closer look

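The genotype difference (WT over *Piezo1*-cKO) differed between lung and PB, by the interaction term, for *Ccrl2* (-1.19), *Ptafr* (-0.57), *Cxcr2* (-0.21), *Cxcr4* (0.16), *Fpr2* (0.45) and *Fpr1* (0.52), given as the log2 difference in lung minus that in PB. The direction within tissues was opposite for *Ptafr*, *Fpr1* and *Fpr2*, each past the p threshold in both tissues. *Ccrl2* was higher in WT in both tissues. *Cxcr2* was lower in WT lung (-0.26), and its difference in PB (-0.04) did not pass the test. For *Cxcr4*, neither difference passed, with 0.05 in lung (adjusted p = 0.31) and -0.11 among the PB libraries (adjusted p = 0.11). The *Piezo1*-cKO PB libraries that enter these terms held 1011 to 1136 FPKM of erythroid markers against 24.8 to 26.7 in WT PB, and *Piezo1*-cKO PB replicate 1 was the shallowest library, with 9621088 reads. Their part in the terms was not tested.

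The lung over PB difference differed between the tissue experiment and the WT mice of the Piezo1 experiment for *Ccrl2* (-0.65), *Cxcr4* (-0.44), *C5ar1* (0.17), *Fpr2* (0.42), *Ptafr* (0.45) and *Fpr1* (0.53), as the tissue experiment minus the Piezo1 experiment on the log2 scale. The term of *C5ar1* had an adjusted p of 0.048, which rose to 0.060 to 0.14 without any 1 library other than PB replicate 3 and to 0.52 after rescaling. Of all genes tested, 40.1% differed in this way, and experiment and library batch cannot be told apart.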

How the results depend on the processing

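Over 91 receptor results and 1128 alternatives to them, 1046 kept their direction and their side of the thresholds, 27 lost a call, 41 gained one and 14 changed sign. The adjusted p alone is the main fit without the fold threshold, could only keep or add calls, and gave 28 of the gains. It could change nothing in the interaction or between experiments, which had no fold threshold. For whole lung, the fit of all libraries was the main fit itself. Requiring only the adjusted p gave 8, 9, 9, 9 and 9 receptors (in place of 4, 8, 5, 4 and 4) in lung over PB, lung over BM, PB over BM and lung over PB of WT and *Piezo1*-cKO mice, and 6 and 4 (in place of 0 and 1) between genotypes in lung and PB. Of all genes, the 64 called between genotypes in lung became 332 with a pseudocount of 0.1, 379 by limma voom and 3265 by the adjusted p alone, and the 265 in PB became 672, 734 and 3607. Rescaling to the median ratio reversed *Cxcr4* (0.61 in lung over PB), *Fpr1* (0.59 in lung over BM, 0.32 in *Piezo1*-cKO lung over PB), *Fpr2* (0.53 in WT lung over PB), *C5ar1* (0.015 between genotypes in lung, 0.074 in the interaction) and *Cxcr2* (-0.0035 between experiments). Without single libraries, values near 0 changed sign: *Ccr1* between genotypes in PB ranged from -0.035 to 0.015, *Cxcr4* in lung over PB from -0.042 to 0.0071, *Fpr1* in whole lung from -0.12 to 0.23, and *Ltb4r1* between experiments reached 0.043 without PB replicate 3. Receptor counts without 1 library ranged from 4 to 5 in lung over PB, 5 to 6 for the interaction and 5 to 8 between experiments, and did not move in the other comparisons.

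Deviations of libraries with the same replicate number correlated at -0.089 to 0.0789, and not every library correlated best with its own number. Whether libraries with the same number share a mouse is not settled by such values. In groups of 2 libraries the deviations mirror each other, so both numbers must give the same correlation. A fit with a replicate block gave 4, 8, 5, 4, 4, 0, 1, 5 and 0 receptors in the comparisons named above, the interaction and whole lung, losing only the interaction of *Cxcr4*. Groups of 2 or 3 libraries and, for *C3ar1*, counts of 9 reads or fewer limit the precision.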
